A study of Saccharomyces cerevisiae with 36 samples.

Results

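Pyruvate stands at the branch between fermentation and respiration, and 10 yeast genes code for the proteins that carry it into the cell and the mitochondrion, carboxylate it or oxidise it: *JEN1*, *MPC1*, *MPC2*, *MPC3*, *PYC1*, *PYC2*, *PDA1*, *PDB1*, *LAT1* and *LPD1*. They were taken by name, and are 10 of the 5697 genes counted. A search by name finds 11 genes, because *GPI13* also carries *MPC1* among its synonyms. *GPI13* was left out, and the members were taken by their systematic names.

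Messenger RNA was sequenced from *Saccharomyces cerevisiae* in 36 libraries, 3 biological replicates (A, B and C) in each of 12 groups. The *gal80Δ* strain, made in FY4, was compared with its wild-type parent FY4, a laboratory strain without auxotrophies. Gal80 holds the activator Gal4 inactive when galactose is absent, so its loss switches the *GAL* genes on. Each strain grew in minimal Delft medium with 0.1% fructose and 0.9% palatinose (fructose-palatinose) or with 0.1% fructose alone (fructose), and was harvested 3 times: at mid-log, after a further 10 hours (+10h), and 16 hours past mid-log (+16h). All cultures shared the same history: they were pre-grown on 2% pyruvate, washed free of it and then inoculated, so that none of the 12 groups was grown on pyruvate when harvested. The samples are whole cultures, in which a change in every cell and a change in the share of cells that express a gene cannot be told apart.

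Libraries held between 6020770 and 11785148 counts (median 8282840.5), so that 3 counts correspond to between 0.255 and 0.498 CPM (counts of a gene scaled to the total counts of its library, the unit of all levels below). *GAL80* lay between 8.10 and 17.2 CPM in *gal80Δ* libraries, against 45.9 to 117 CPM in wild-type libraries. The Gal4 target *GAL1* lay between 6611 and 19461 CPM in *gal80Δ* libraries, against 19.3 to 73.3 CPM in wild-type libraries. No library went against its label in these genes. OD at harvest averaged between 0.28 and 0.307 over the groups at mid-log. At +10h it was 1.58 in *gal80Δ* and 1.73 in wild-type cultures in fructose-palatinose, and 1.47 in *gal80Δ* and 1.52 in wild-type cultures in fructose. At +16h it was 1.98 in *gal80Δ* and 2.73 in wild-type cultures in fructose-palatinose, and 1.83 in *gal80Δ* and 1.95 in wild-type cultures in fructose.

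Jen1 is the plasma membrane symporter that takes up lactate and pyruvate with protons, and its gene is known to be repressed by glucose. Inside the cell, the mitochondrial pyruvate carrier is built from Mpc1 with a partner, Mpc2 in fermenting and Mpc3 in respiring cells. The cytosolic carboxylases Pyc1 and Pyc2 turn pyruvate into oxaloacetate, the first step of gluconeogenesis and a source of carbon for the citric acid cycle. In the mitochondrial matrix, the pyruvate dehydrogenase complex (Pda1 and Pdb1, the E1 subunits, Lat1, the E2 acetyltransferase, and Lpd1, the E3 dihydrolipoamide dehydrogenase) turns pyruvate into acetyl-CoA.

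The upstream regions of *JEN1*, *MPC3* and *MPC2* are shown because the first pair rose several-fold with time and the third did not, although *MPC2* and *MPC3* are paralogs. Each is the 200 bases from 300 to 101 bases before the counted interval in the R64 genome, on the plus strand, which here is the strand of the gene. The counted interval starts 25 bases before the start codon of *JEN1* and *MPC3* but 403 before that of *MPC2*, so the windows end 126 bases before the start codon in the first pair and 504 bases before it in *MPC2*, and are not at matched places. Capitals mark CCAAT, the core of the sites bound by the Hap complex, and AGGGG, the core of the stress response element, each on either strand (ATTGG and CCCCT are the reverse complements).
JEN1, chrXI:21909-22108: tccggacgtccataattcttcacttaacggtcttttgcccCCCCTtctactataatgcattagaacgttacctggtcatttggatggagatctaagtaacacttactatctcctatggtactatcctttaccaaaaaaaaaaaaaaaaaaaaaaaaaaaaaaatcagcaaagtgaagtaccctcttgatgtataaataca
MPC3, chrVII:977011-977210: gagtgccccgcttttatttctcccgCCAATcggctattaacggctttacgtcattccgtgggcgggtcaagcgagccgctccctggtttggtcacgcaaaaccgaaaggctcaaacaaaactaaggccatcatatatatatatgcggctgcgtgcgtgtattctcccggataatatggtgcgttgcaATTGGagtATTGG
MPC2, chrVIII:422369-422568: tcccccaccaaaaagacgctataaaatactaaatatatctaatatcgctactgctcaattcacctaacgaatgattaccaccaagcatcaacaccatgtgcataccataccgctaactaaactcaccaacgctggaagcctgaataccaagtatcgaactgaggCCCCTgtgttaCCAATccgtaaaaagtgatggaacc
The *MPC3* window holds CCAAT 3 times, 275, 113 and 105 bases before the counted interval, and 0.878% of the 5697 windows of this length hold it 3 times or more. The *MPC2* window holds it once, 125 bases before the interval, as do 32.5% of all windows at least once, and the *JEN1* window does not hold it. AGGGG stands once in the *JEN1* window (260 bases before) and once in that of *MPC2* (136 bases before), against 15.7% of all windows at least once, and not in that of *MPC3*. Over the 10 members, 7 windows hold CCAAT and 5 hold AGGGG. These are matches of letters and not shown to be bound.

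The carboxylase genes are near copies of each other, which bears on how well their reads can be separated. Their coding sequences are 3537 and 3543 bases long for *PYC1* and *PYC2* and 85.1% identical. A 75-base stretch close to the stop codons, from the last long ungapped part of their alignment, shows the kind of difference that separates them, with capitals at the 19 bases that differ.
PYC1, chrVII:388619-388693, plus strand: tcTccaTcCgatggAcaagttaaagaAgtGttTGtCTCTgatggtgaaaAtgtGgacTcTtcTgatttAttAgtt
PYC2, chrII:658749-658823, minus strand: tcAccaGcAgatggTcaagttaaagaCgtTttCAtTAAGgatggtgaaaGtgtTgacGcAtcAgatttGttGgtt
The last 300 bases of the counted intervals, where reads primed on the poly(A) tail fall, were 50.2% identical between *PYC1* and *PYC2* and 47.0% identical between *MPC2* and *MPC3*. Gaps counted as differences, and these windows are not at matched places. The interval ends 51 bases past the coding sequence of *PYC1* and 116 past that of *PYC2*. The values can therefore lie below the identity of matched bases, and how many reads fit both genes was not tested. The 3′ end of *PYC2* shares 130 bases with the interval of *ATG12* on the other strand, and that of *PYC1* shares 66 bases with *DUO1* on the other strand. The start of *PYC1* shares 87 bases with *PUS2* and that of *MPC1* 74 bases with *YGL081W*, both on the same strand. Whether counting used the strand is not given in the sources used here, and counts in shared stretches are uncertain.

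*JEN1* (YKL217W, chromosome XI, 22209 to 24209) changed most of the 10 genes. In fructose-palatinose, its levels in *gal80Δ* libraries A, B and C were 37.5, 47.3 and 40.5 CPM at mid-log, 894, 1050 and 800 CPM at +10h, and 1057, 1169 and 1017 CPM at +16h. Wild-type libraries in the same medium held 27.9, 19.95 and 35.3 CPM at mid-log, 591, 576 and 517 CPM at +10h, and 502, 588 and 583 CPM at +16h. The gene was thus low in every library at mid-log and high in every later one, with no overlap, and at each time the *gal80Δ* libraries in fructose-palatinose lay above the wild-type ones.

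In fructose, *JEN1* in *gal80Δ* libraries stood at 37.6, 38.1 and 37.5 CPM at mid-log, 906, 845 and 943 CPM at +10h, and 874, 1022 and 1025 CPM at +16h. Wild-type libraries in fructose held 30.4, 28.7 and 45.2 CPM, then 779, 953 and 639 CPM, then 707, 748 and 758 CPM. Here the strains overlapped at mid-log and +10h and lay apart at +16h.

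**Figure D1:**
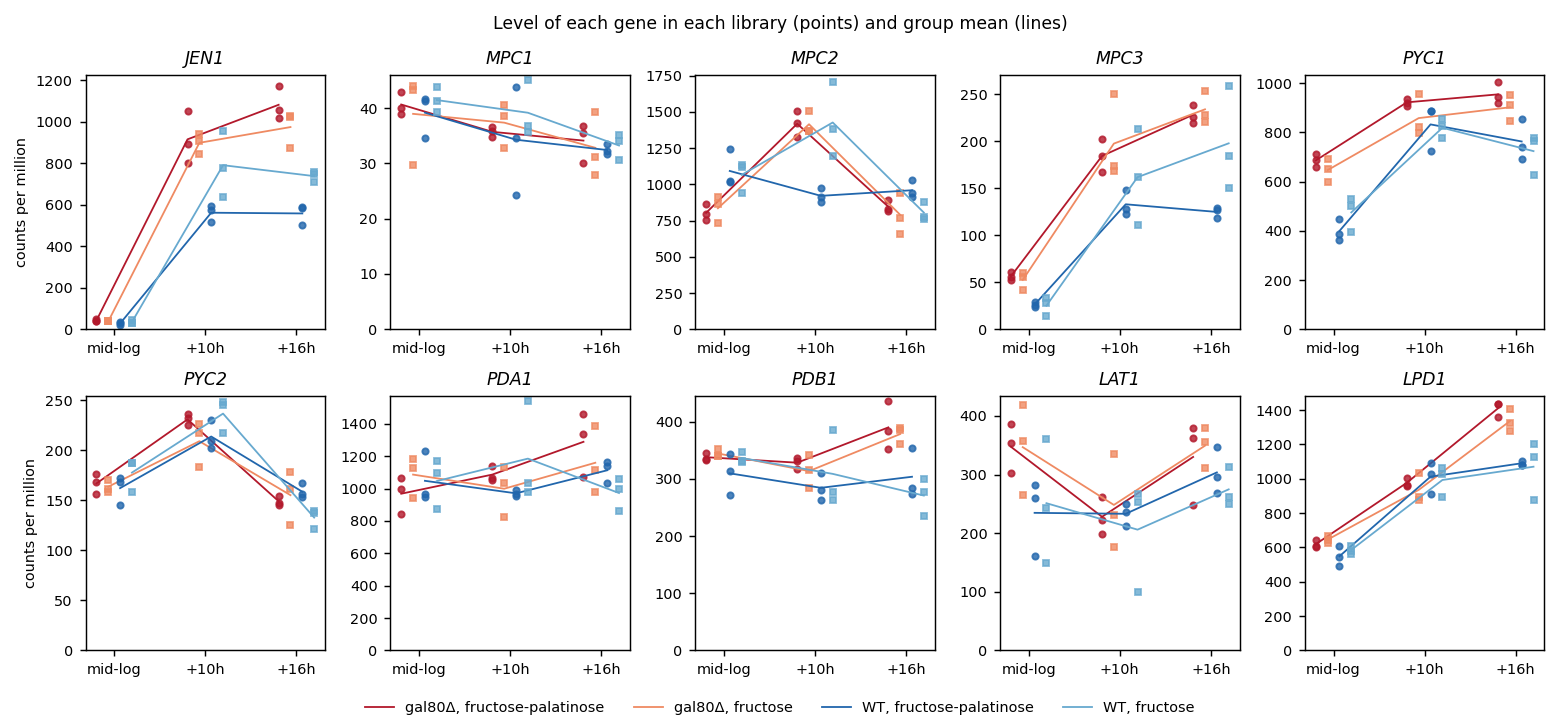
Levels of the 10 genes in CPM (vertical axes, from 0) at mid-log, +10h and +16h. Points are libraries and lines join group means, for *gal80Δ* and wild-type cultures in fructose-palatinose and in fructose. *JEN1* and *MPC3* rise in all 4 series, the mean CPM of *MPC2*, which is not scaled by TMM, is highest at +10h in all but the wild type in fructose-palatinose, and *MPC1* stays between 24.4 and 45.1 CPM.

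Between mid-log and +10h, *JEN1* rose in all 4 series. Its mean CPM at +10h was 21.9 times that at mid-log in *gal80Δ* cultures in fructose-palatinose and 23.8 times in fructose, and 20.3 and 22.7 times in wild-type cultures in these media. A gene is called changed here where its log2 fold change in edgeR's quasi-likelihood fit exceeds 0.5 in size with an adjusted p below 0.05. Log2 fold changes are scaled by TMM and not by library size alone, so they need not equal the log2 ratio of the CPM values. For *JEN1* in fructose-palatinose the log2 fold change was 4.15 ± 0.19 (SE, adjusted p = 2.71e-17) in *gal80Δ* and 4.09 ± 0.19 (adjusted p = 4.91e-17) in wild-type cultures. In fructose it was 4.30 ± 0.19 (adjusted p = 1.51e-17) in *gal80Δ* and 4.14 ± 0.19 (adjusted p = 2.17e-17) in wild-type cultures. The 4 increases did not pass a test of difference between strains (0.07 ± 0.24 in fructose-palatinose, 0.16 ± 0.24 in fructose) or between media (-0.15 ± 0.24 in *gal80Δ*, -0.05 ± 0.24 in the wild type). From +10h to +16h, the fitted changes lay between -0.01 and 0.26 and none passed.

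The step from mid-log to +10h changed much of the transcriptome. Of all 5479 genes tested, 50.5% passed in *gal80Δ* and 45.7% in wild-type cultures in fructose-palatinose, and 52.7% in *gal80Δ* and 55.2% in wild-type cultures in fructose. Against these shares, the members that passed were 4 of 10 in *gal80Δ* and 5 of 10 in the wild type in fructose-palatinose, and 3 of 10 in *gal80Δ* and 2 of 10 in the wild type in fructose. TMM set the median change of all genes in this step between 0.02 and 0.06, whereas scaling by library size alone put it between 0.28 and 0.38. Changes are therefore relative to the typical gene, and *PDA1* in *gal80Δ* cultures in fructose-palatinose (-0.12 by TMM, 0.17 by library size) and in the wild type in fructose (-0.19 and 0.18) changed sign between scalings, neither value passing the test.

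**Figure D2:**
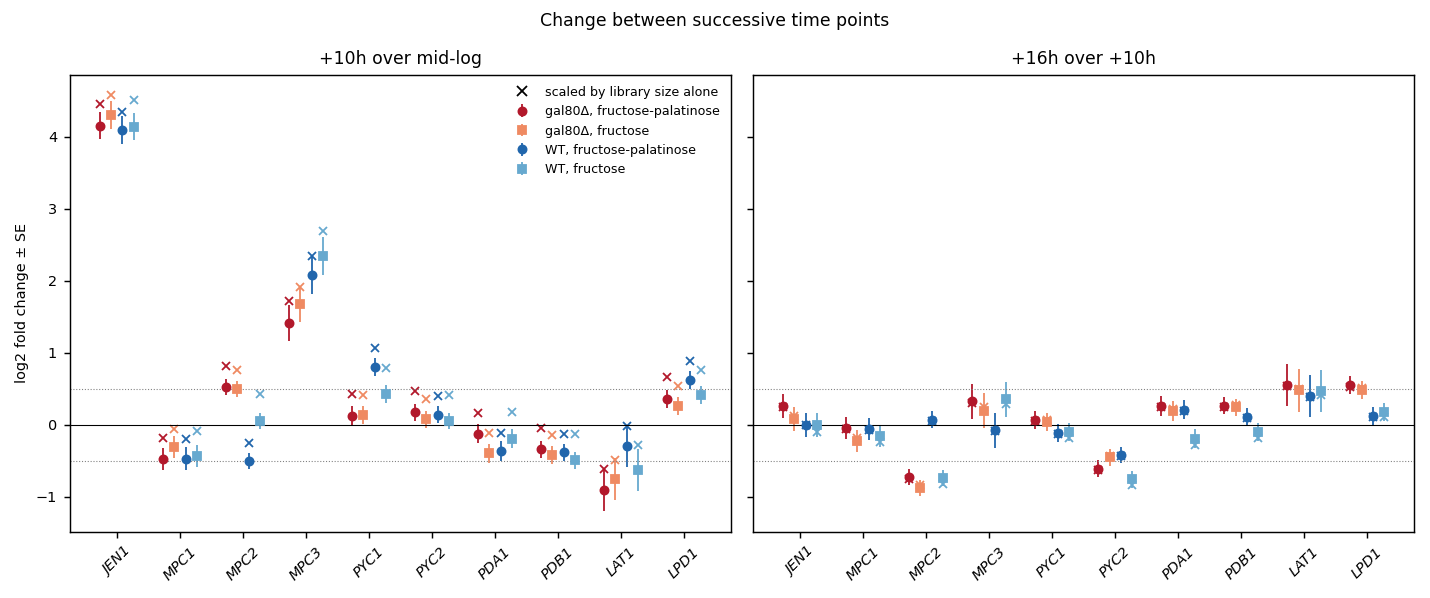
Log2 fold change of each gene (vertical axis) from mid-log to +10h and from +10h to +16h, with bars of 1 SE, in the 4 combinations of strain and medium. Crosses give the same change scaled by library size alone and dotted lines mark 0.5 and -0.5, so that the rise of *JEN1* by 4.09 to 4.30 and the offset of the crosses in the first step can be compared.

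The mitochondrial carrier genes went in different directions. *MPC1* (YGL080W, chromosome VII, 358555 to 359306), whose product is common to both forms of the carrier, had the lowest levels of the 10 genes from +10h on, between 24.4 and 45.1 CPM over the 36 libraries. It passed in 0 of 23 contrasts of strain, medium, their interaction and time. By edgeR, 3 of these had an unadjusted p below 0.05, and DESeq2 called 2, the falls from mid-log to +10h in fructose-palatinose (-0.48 ± 0.15 in *gal80Δ* and -0.47 ± 0.15 in the wild type by edgeR, with -0.19 and -0.20 by library size alone). *MPC2* had between 660 and 1706 CPM. Reads mark the 3′ end, so CPM were not divided by gene length, but levels of different genes can also depend on how well the counted interval covers the 3′ end. It ran 278, 114 and 125 bases past the coding sequence for *MPC1*, *MPC2* and *MPC3*, and its part in their levels was not tested.

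*MPC3* (YGR243W, chromosome VII, 977311 to 977901), the respiratory partner, rose from mid-log to +10h in all 4 series. In fructose-palatinose, *gal80Δ* libraries A, B and C held 56.1, 60.7 and 52.1 CPM at mid-log, 184, 202 and 167 CPM at +10h, and 239, 220 and 226 CPM at +16h. Wild-type libraries in that medium held 28.9, 23.7 and 26.0 CPM, then 148, 123 and 128 CPM, then 127, 118 and 129 CPM. Every *gal80Δ* library stood above every wild-type library at the same time.

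In fructose, *MPC3* had 59.9, 56.0 and 41.6 CPM at mid-log in *gal80Δ* libraries, 251, 169 and 173 CPM at +10h, and 228, 254 and 220 CPM at +16h. Wild-type libraries in fructose held 28.4, 13.7 and 33.1 CPM, then 162, 111 and 213 CPM, then 151, 184 and 259 CPM. The strains lay apart at mid-log and overlapped later, where the wild-type libraries were spread widely.

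The rise of *MPC3* to +10h was 1.41 ± 0.25 on the log2 scale (adjusted p = 1.48e-05) in *gal80Δ* and 2.07 ± 0.26 (adjusted p = 8.51e-08) in wild-type cultures in fructose-palatinose. In fructose it was 1.67 ± 0.25 (adjusted p = 1.25e-06) in *gal80Δ* and 2.34 ± 0.26 (adjusted p = 5.06e-09) in the wild type. The smaller rise in *gal80Δ* started from a higher level, and the differences between strains, -0.66 ± 0.35 in fructose-palatinose and -0.67 ± 0.35 in fructose, did not pass (adjusted p = 0.36 and 0.56). From +10h to +16h *MPC3* did not pass in any series, with values between -0.08 and 0.35.

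*MPC2* (YHR162W, chromosome VIII, 422669 to 423575), the fermentative partner, differed between the series. In *gal80Δ* cultures in fructose-palatinose, libraries A, B and C held 866, 752 and 793 CPM at mid-log, 1504, 1425 and 1327 CPM at +10h, and 820, 828 and 890 CPM at +16h. The wild type in that medium held 1015, 1022 and 1243 CPM at mid-log, 974, 879 and 911 CPM at +10h, and 938, 911 and 1029 CPM at +16h. In fructose, *gal80Δ* libraries held 910, 864 and 732 CPM, then 1372, 1506 and 1369 CPM, then 768, 660 and 943 CPM. The wild type in fructose held 939, 1122 and 1137 CPM, then 1383, 1706 and 1194 CPM, then 760, 882 and 775 CPM. By library size the mean was thus highest at +10h in 3 of the 4 series.

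In fructose-palatinose, *MPC2* rose to +10h by 0.53 ± 0.11 on the log2 scale in *gal80Δ* (adjusted p = 2.05e-04) and fell by 0.50 ± 0.11 in the wild type (log2 fold change -0.50, adjusted p = 4.02e-04), and the difference between the strains, 1.03 ± 0.16, passed (adjusted p = 1.16e-04) in a contrast where 2.61% of all genes did. It also passed with each replicate letter left out and under each other scaling, filter and model run. The 2 single changes sit close to the minimum of 0.5: the rise in *gal80Δ* was 0.49 by DESeq2 and 0.49 without replicate A, and the fall in the wild type was -0.25 by library size alone and -0.46 without replicate C. In fructose, the change to +10h was 0.49 ± 0.11 in *gal80Δ* (adjusted p = 3.94e-04, and 0.76 by library size alone), below the minimum fold change, and 0.06 ± 0.11 in the wild type (adjusted p = 0.69, and 0.42 by library size alone), so that neither was called. From +10h to +16h *MPC2* fell in *gal80Δ* cultures in both media (-0.73 ± 0.11 in fructose-palatinose, adjusted p = 5.34e-05, and -0.88 ± 0.11 in fructose, adjusted p = 3.14e-06) and in the wild type in fructose (-0.74 ± 0.11, adjusted p = 3.57e-05), but its value in the wild type in fructose-palatinose was 0.07 ± 0.11. The fall in the wild type in fructose did not pass in a fit of its 2 groups alone (adjusted p = 0.065). In the step to +16h, 8.60% of all genes passed in *gal80Δ* and 1.59% in the wild type in fructose-palatinose, and 9.27% in *gal80Δ* and 11.1% in the wild type in fructose. Of the members, 3, 0, 1 and 2 passed in these series, and in the wild type in fructose-palatinose 1 member had an unadjusted p below 0.05 by edgeR and DESeq2 called 0.

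The ratio of *MPC3* to *MPC2* within a library gives the alternative partners within a library, with the same limit on comparing genes. In fructose-palatinose the *gal80Δ* cultures averaged 0.0704 ± 0.0090 (SD, n = 3 as for each group), 0.130 ± 0.010 and 0.270 ± 0.019 at the 3 successive times. Wild-type cultures averaged 0.0242 ± 0.0039, 0.144 ± 0.0067 and 0.130 ± 0.0051. In fructose it averaged 0.0625 ± 0.0050, 0.140 ± 0.037 and 0.305 ± 0.076 in *gal80Δ* cultures, against 0.0239 ± 0.010, 0.120 ± 0.057 and 0.247 ± 0.075 in the wild type. In all 36 libraries *MPC2* had more counts than *MPC3*. At mid-log the ratios of all 6 *gal80Δ* libraries (0.0568 to 0.0807) lay above those of all 6 wild-type libraries (0.0122 to 0.0303), and at +16h the wild type in fructose-palatinose (0.125 to 0.136) lay below the other groups (0.198 to 0.385). No test was run on the ratios.

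**Figure D3:**
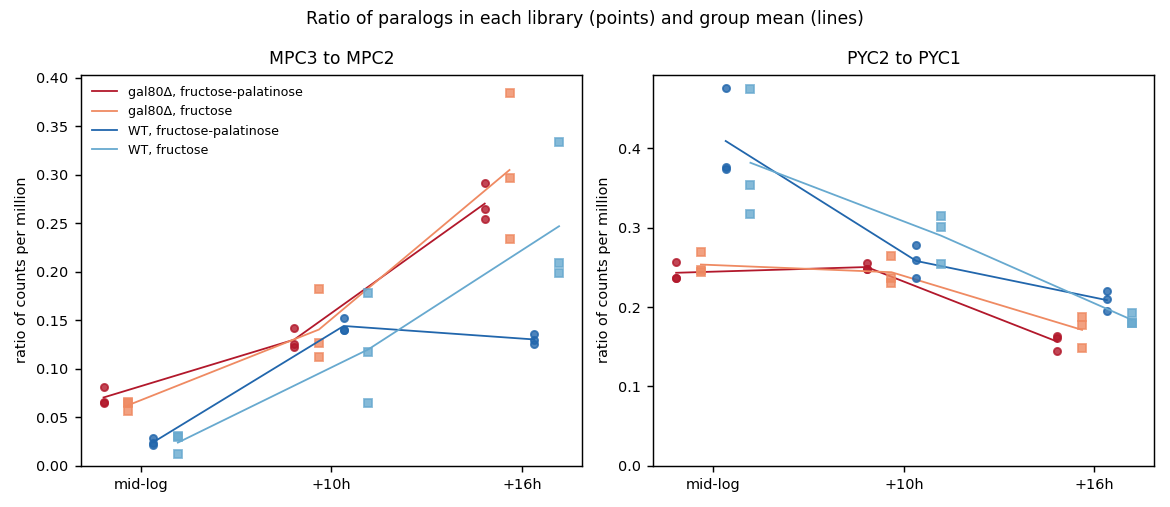
Ratio of CPM within each library for *MPC3* to *MPC2* and for *PYC2* to *PYC1* (vertical axes, from 0) at the 3 times. Points are libraries and lines join group means. The *MPC3* to *MPC2* ratio stays between 0.125 and 0.152 after mid-log in the wild type in fructose-palatinose, and the *PYC2* to *PYC1* ratio is lowest at +16h in every series.

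Of the carboxylases, *PYC1* (YGL062W, chromosome VII, 385140 to 388783) had the higher level in every library. In fructose-palatinose, *gal80Δ* libraries held 660, 712 and 687 CPM at mid-log, 909, 937 and 921 CPM at +10h, and 918, 943 and 1003 CPM at +16h. Wild-type libraries held 389, 362 and 447 CPM, then 887, 885 and 725 CPM, then 694, 855 and 741 CPM. In CPM, which are scaled by library size alone and not by TMM, the strains did not overlap at any of the 3 times. The gap was widest at mid-log, where the fitted difference between the strains was 0.70 ± 0.13 (adjusted p = 5.80e-04). At +10h the difference was 0.02 ± 0.13 and at +16h 0.21 ± 0.13, and neither passed.

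*PYC1* rose to +10h in the wild type in fructose-palatinose by 0.80 ± 0.13 on the log2 scale (adjusted p = 5.02e-06). Its value in *gal80Δ* in that medium was 0.13 ± 0.13, and the difference between these changes, -0.68 ± 0.18, passed (adjusted p = 0.0345). It no longer passed with library size alone (-0.63, adjusted p = 0.0511), with the culture as a block (adjusted p = 0.0615) or without any one letter (adjusted p from 0.180 to 0.510). Calls over all genes in this contrast also fell, from 143 to 57, 29 and 61 without A, B and C. In fructose, *PYC1* averaged 647 ± 46.2 CPM in *gal80Δ* and 475 ± 71.1 CPM in wild-type cultures at mid-log (0.40 ± 0.13, adjusted p = 0.0471), short of the minimum fold change. Its values to +10h in fructose were 0.14 ± 0.13 in *gal80Δ* and 0.43 ± 0.13 in the wild type.

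*PYC2* (YBR218C, chromosome II, 658591 to 662399) had its highest group means in CPM at +10h, but no change to +10h passed. In fructose-palatinose, *gal80Δ* libraries held 156, 168 and 176 CPM at mid-log, 225, 232 and 236 CPM at +10h, and 148, 154 and 146 CPM at +16h. Wild-type libraries in that medium held 146, 173 and 169 CPM, then 231, 209 and 202 CPM, then 153, 167 and 156 CPM. The strains overlapped at each time, and *PYC2* passed in 0 of 6 contrasts between strains by edgeR, with 0 at an unadjusted p below 0.05 and 0 by DESeq2.

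Its fitted changes to +10h were 0.17 ± 0.12 in *gal80Δ* and 0.14 ± 0.12 in wild-type cultures in fructose-palatinose, and 0.07 ± 0.12 in *gal80Δ* and 0.05 ± 0.12 in wild-type cultures in fructose. From +10h to +16h *PYC2* fell in *gal80Δ* cultures in fructose-palatinose (-0.61 ± 0.12, adjusted p = 6.65e-04, and 0.0507 without replicate B) and in the wild type in fructose (-0.75 ± 0.12, adjusted p = 4.39e-05). The other series had -0.42 ± 0.12 (wild type in fructose-palatinose, adjusted p = 0.062) and -0.45 ± 0.12 (*gal80Δ* in fructose, adjusted p = 0.00957). The ratio of *PYC2* to *PYC1* averaged 0.243 ± 0.011, 0.250 ± 0.0049 and 0.156 ± 0.010 at the 3 times in *gal80Δ* cultures in fructose-palatinose. In the wild type it averaged 0.409 ± 0.058, 0.258 ± 0.021 and 0.209 ± 0.012. In fructose these means were 0.254, 0.244 and 0.171 in *gal80Δ* and 0.382, 0.290 and 0.184 in wild-type cultures. At mid-log every *gal80Δ* library (0.237 to 0.269) lay below every wild-type library (0.318 to 0.477).

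Of the pyruvate dehydrogenase genes, *PDA1* and *PDB1* passed in no contrast, and *LPD1* and *LAT1* in 2 each. *PDA1* (YER178W, chromosome V, 546805 to 548344) codes for the E1 alpha subunit and lay between 824 and 1539 CPM in all 36 libraries. *PDB1* (YBR221C, chromosome II, 664844 to 666471) codes for E1 beta and lay between 236 and 436 CPM. Each passed in 0 of 23 contrasts by edgeR, with 2 (*PDA1*) and 6 (*PDB1*) at an unadjusted p below 0.05, and DESeq2 called 0 and 1. That 1 was *PDB1* from mid-log to +10h in the wild type in fructose, with -0.50 ± 0.12 by edgeR (adjusted p = 6.73e-04), -0.54 by DESeq2 and -0.12 by library size alone. At +16h in fructose, *PDB1* had 362, 385 and 389 CPM in *gal80Δ* libraries, against 277, 300 and 236 CPM in wild-type libraries. These did not overlap, and the difference of 0.42 ± 0.12 (adjusted p = 0.0277) was below the minimum fold change.

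*LPD1* (YFL018C, chromosome VI, 101497 to 103218) rose over the time course. In fructose-palatinose, *gal80Δ* libraries held 611, 645 and 600 CPM at mid-log, 1007, 964 and 960 CPM at +10h, and 1434, 1437 and 1360 CPM at +16h. Wild-type libraries held 543, 494 and 608 CPM, then 1030, 914 and 1093 CPM, then 1083, 1083 and 1105 CPM. Each time lay above the one before in *gal80Δ*, while the wild type overlapped between +10h and +16h.

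The rise of *LPD1* to +10h passed in the wild type in fructose-palatinose (0.62 ± 0.12, adjusted p = 9.82e-05) but at 0.36 ± 0.12 not in *gal80Δ*, and the difference between these changes did not pass (-0.26 ± 0.17, adjusted p = 0.48). From +10h to +16h it rose in *gal80Δ* in fructose-palatinose (0.55 ± 0.12, adjusted p = 0.00298, and 0.0911 and 0.0775 without replicates A and B), against 0.12 ± 0.12 in the wild type, with a difference of 0.43 ± 0.17 that did not pass (adjusted p = 0.57). In fructose, the values to +10h were 0.26 ± 0.12 in *gal80Δ* and 0.41 ± 0.12 in the wild type, and those to +16h 0.48 ± 0.12 and 0.18 ± 0.12. By library size alone, the change to +10h exceeded 0.5 in all 4 series, from 0.54 to 0.88.

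*LAT1* (YNL071W, chromosome XIV, 491389 to 493126) had the widest spread between replicates of the 10 genes, with a within-group SD of 0.40 in log2 CPM against 0.11 for *MPC2* and 0.33 for *MPC3*. In fructose-palatinose, *gal80Δ* libraries held 353, 303 and 386 CPM at mid-log, 262, 199 and 223 CPM at +10h, and 249, 362 and 380 CPM at +16h. In fructose they held 419, 357 and 265 CPM, then 177, 336 and 232 CPM, then 380, 312 and 356 CPM. The fall to +10h passed in *gal80Δ* in both media (-0.90 ± 0.29, adjusted p = 0.00971, in fructose-palatinose and -0.76 ± 0.29, adjusted p = 0.0275, in fructose), although in fructose the times overlapped. By library size alone, neither passed (-0.61 and -0.48), and neither passed without replicate C.

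Wild-type libraries had *LAT1* at 260, 282 and 161 CPM at mid-log, 250, 237 and 212 CPM at +10h and 296, 268 and 346 CPM at +16h in fructose-palatinose. In fructose they held 361, 242 and 150 CPM, then 253, 98.8 and 266 CPM, then 261, 312 and 251 CPM. The fitted change to +10h in the wild type was -0.29 ± 0.29 in fructose-palatinose (adjusted p = 0.41) and -0.63 ± 0.29 in fructose (adjusted p = 0.065). The value in fructose passed by DESeq2 (-0.68, adjusted p = 0.0326), with RLE size factors (adjusted p = 0.0429) and without replicate C (-1.15, adjusted p = 0.00847). The changes did not pass a test of difference between *gal80Δ* and the wild type (-0.61 ± 0.41 in fructose-palatinose, adjusted p = 0.50, and -0.13 ± 0.41 in fructose, adjusted p = 0.96). Library B of the wild type in fructose at +10h had the lowest *LAT1* of all 36 and, at 1539 and 1706 CPM, the highest *PDA1* and *MPC2*. Its part in the results was not tested on its own beyond leaving out letter B in every group.

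Between strains, 8 of the 60 pairs of member and contrast passed, against 9.29% of all such pairs over the 5479 genes. In fructose-palatinose, 3 members passed at mid-log (against 8.01% of all genes), 2 at +10h (14.3%) and 2 at +16h (12.8%). In fructose, 1 member passed in the contrast at mid-log (7.15% of all genes) and 0 in those at +10h (7.50%) and +16h (5.97%), where 2 of 20 pairs had an unadjusted p below 0.05 by edgeR and DESeq2 called 0. *JEN1* was higher in *gal80Δ* in fructose-palatinose by 0.58 ± 0.17 at +10h (adjusted p = 0.0138) and 0.84 ± 0.17 at +16h (adjusted p = 6.72e-04), after 0.52 ± 0.17 at mid-log, which did not pass (adjusted p = 0.0529). *MPC3* was higher in *gal80Δ* at mid-log by 1.01 ± 0.25 in both media (adjusted p = 0.00955 in fructose-palatinose and 0.012 in fructose) and at +16h in fructose-palatinose by 0.76 ± 0.24 (adjusted p = 0.0302). *MPC2* was lower in *gal80Δ* at mid-log in fructose-palatinose (-0.53 ± 0.11, adjusted p = 0.0026) and higher at +10h (0.50 ± 0.11, adjusted p = 0.00215).

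Fewer differences between strains passed with a replicate letter left out. All 8 lay in libraries that did not overlap in CPM. With a letter left out, 1 (without A), 1 (without B) or 4 (without C) of the member contrasts passed, and each of the 8 was lost at least once. Calls over all genes fell too without A, B and C. In fructose-palatinose they went from 439 to 194, 108 and 343 at mid-log and from 781 to 434, 241 and 585 at +10h. At +16h in that medium they went from 704 to 403, 307 and 491, and in fructose at mid-log from 392 to 162, 56 and 301. The smallest, *MPC2* at +10h, was 0.49 by DESeq2. At +16h in fructose-palatinose the strains also differed in OD at harvest (1.98 in *gal80Δ* and 2.73 in the wild type), and the part of growth stage in the differences of *JEN1* and *MPC3* was not tested.

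**Figure D4:**
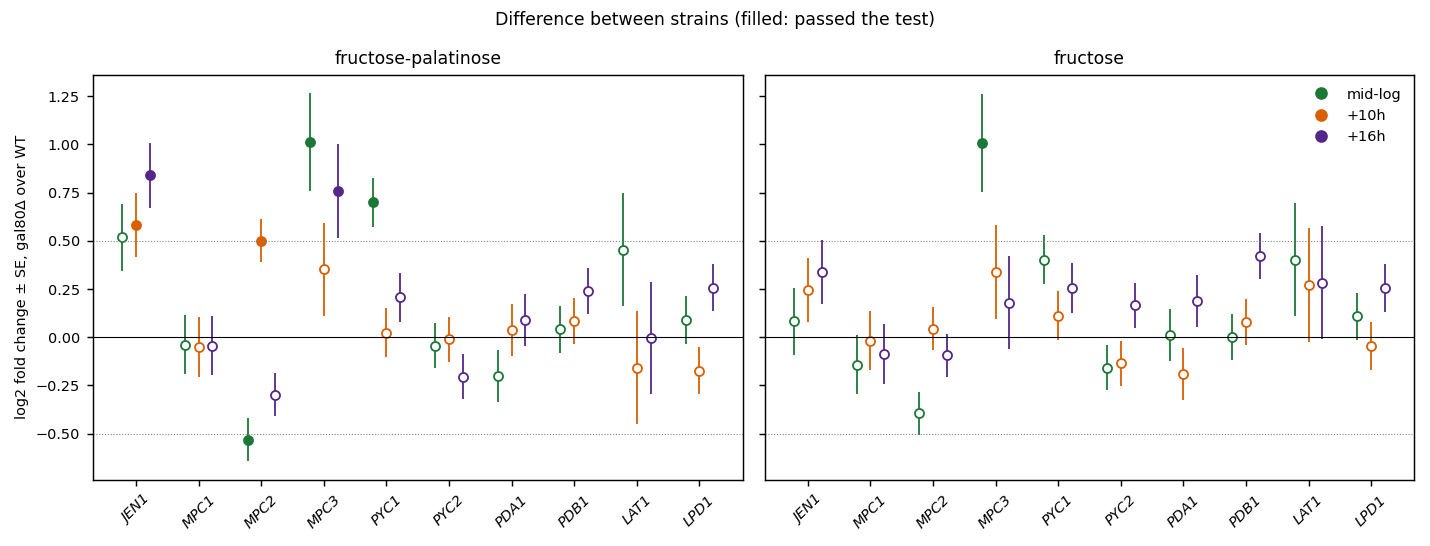
Log2 fold change of *gal80Δ* over wild type (vertical axis) with bars of 1 SE, for the 10 genes at the 3 times, in fructose-palatinose and in fructose. Filled points passed the test and dotted lines mark 0.5 and -0.5. The filled points are *JEN1*, *MPC2*, *MPC3* and *PYC1* in fructose-palatinose and *MPC3* in fructose.

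Between media, 1 of 60 pairs passed, against 3.05% over all genes. That was *MPC2* in the wild type at +10h, with the values given above, which was lower in fructose-palatinose (-0.51 ± 0.11, adjusted p = 0.00271), in a contrast where 11.6% of all genes passed. It no longer passed without replicate A or B or in a fit of the 2 groups alone (adjusted p = 0.118). This contrast, the strain contrast at +10h and the time contrast of the wild type in fructose-palatinose share the 3 wild-type libraries in fructose-palatinose at +10h, so that the 3 calls of *MPC2* are not independent. *JEN1* was at -0.32, -0.36 and -0.35 in the wild type at the 3 times, and none passed. At mid-log 0.128% of all genes passed in each strain, and at +16h 6.19% in the wild type, with 0 members. In the wild type at +16h, 4 of the 10 members had an unadjusted p below 0.05 by edgeR, and DESeq2 called 0. The largest in size was *MPC3* at -0.62 ± 0.24 (adjusted p = 0.126), whose libraries did not overlap between media in CPM. It passed in a fit of the 2 groups alone (-0.63, adjusted p = 0.0248). In *gal80Δ*, where 0.146% of all genes passed at +10h and 0.128% at +16h, the members' values between media lay between -0.19 and 0.15, and 0 of 30 passed by edgeR, with 0 at an unadjusted p below 0.05 and 0 by DESeq2. The interaction of strain and medium passed for 0 of 30 pairs by edgeR (0.779% over all genes, and 0%, 0.803% and 1.53% at the 3 times), with 3 at an unadjusted p below 0.05 and 0 by DESeq2.

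How far a change over time differed between strains or between media was tested for 80 pairs, of which 5 passed, against 1.08% over all genes. Between strains in fructose-palatinose, *MPC2* and *PYC1* passed in the step to +10h (2.61% of all genes) and *MPC2* in the step to +16h (0.219%, value -0.80 ± 0.16). Between media in the wild type, *MPC2* passed in the step to +10h (3.10%, value -0.56 ± 0.16) and in that to +16h (1.41%, value 0.81 ± 0.16). No member passed between strains in fructose (0.621% of all genes to +10h and 0.657% to +16h) or between media in *gal80Δ* (0.0183% and 0%), with 1 of these 40 pairs at an unadjusted p below 0.05 by edgeR and 0 called by DESeq2. *MPC2* thus accounts for 4 of the 5, and all 4 use its wild-type libraries in fructose-palatinose at +10h.

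The genes whose course was most like that of *JEN1*, by Pearson's r of mean log2 CPM over the 12 groups, were *ACH1* (CoA transferase acting on acetyl-CoA), *HXT5* (hexose transporter), *IDP2* (cytosolic isocitrate dehydrogenase), *MLS1* (malate synthase of the glyoxylate cycle) and *STL1* (glycerol symporter), with r from 0.996 to 0.997. For *MPC3* they were *TMA10*, *IRC20*, *PKH2*, *XBP1* and *GPM2*, with r from 0.991 to 0.993. For *PYC1* they were *YDR541C*, *NEO1*, *HSP82*, *TSL1* and *COX16*, with r from 0.928 to 0.940. The step from mid-log to +10h, in which between 45.7% and 55.2% of all genes passed, weighs heavily in r over these 12 means. *JEN1* itself had r of 0.954 with *MPC3* and -0.961 with *MPC1*. How many of all genes reach such values was not tested, and the lists are a description only.

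Genes around pyruvate dehydrogenase were read from a list of 8, of which 7 were tested. The values of list genes here and below come from the edgeR fit of all 36 libraries. Whether their calls held under other scalings, filters and models or without a replicate letter was not tested, and some lie close to the minimum of 0.5. *PDX1*, the E3-binding protein, had between 0 and 12 counts a library and did not pass the filter on low counts. From mid-log to +10h, 3 rose in *gal80Δ* and 3 in wild-type cultures in fructose-palatinose, 3 in *gal80Δ* and 2 in the wild type in fructose, and 0 fell. Between 45.7% and 55.2% of all genes passed in these series, in either direction. *PKP2*, a kinase of the complex, rose by 2.57 and 1.43 in *gal80Δ* and the wild type in fructose-palatinose and by 2.27 and 2.24 in fructose, and was higher in *gal80Δ* at +10h in fructose-palatinose by 1.14 ± 0.16. The other kinase gene, *PKP1*, rose in *gal80Δ* (0.65 in fructose-palatinose and 1.15 in fructose), *LIP5* (lipoate synthase) rose by 0.51 to 0.62 in all 4 series, and the phosphatase gene *PTC6* rose in the wild type in fructose-palatinose (0.90). By +16h *PKP2* had fallen again in all series (-0.79 to -1.20) but the wild type in fructose-palatinose (-0.28), and *PTC5*, another phosphatase gene, fell in *gal80Δ* in fructose (-0.90). *LIP2* (lipoyl ligase) was higher in *gal80Δ* at +10h in fructose (0.60). Between 1.59% and 11.1% of all genes passed in the step to +16h. Between strains at +10h, 14.3% passed in fructose-palatinose and 7.5% in fructose.

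Lpd1 also serves the 2-oxoglutarate dehydrogenase and glycine cleavage complexes. Of their 5 other genes, *KGD1* and *KGD2*, of 2-oxoglutarate dehydrogenase, rose to +10h in all 4 series (1.48 to 2.30 and 0.63 to 1.37 on the log2 scale). Those of glycine cleavage went the other way where they passed: *GCV2* fell in all 4 series (-0.60 to -1.13), *GCV1* in *gal80Δ* in both media (-0.52 each) and *GCV3* in the wild type in fructose (-0.63). In this step between 45.7% and 55.2% of all genes passed, in either direction. From +10h to +16h, *KGD1*, *KGD2* and *GCV2* rose in *gal80Δ* in fructose (0.73, 0.57 and 0.54), and *KGD2* in fructose-palatinose (0.62). Of all genes, 9.27% passed in *gal80Δ* in fructose and 8.6% in fructose-palatinose in this step. At +10h *GCV1* was lower in *gal80Δ* in fructose-palatinose (-0.72) and *GCV2* in fructose (-0.50, close to the minimum). These strain contrasts passed for 14.3% of all genes in fructose-palatinose and 7.5% in fructose. In fructose, calls over all genes went from 411 to 39 with only the groups compared and to 96 without replicate B.

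Other enzymes that make or use pyruvate were 7 genes, all tested. To +10h, 3 rose and 3 fell in *gal80Δ* and 2 rose and 1 fell in the wild type in fructose-palatinose, and 3 rose and 4 fell in each strain in fructose, where 52.7% of all genes passed in *gal80Δ* and 55.2% in the wild type (50.5% and 45.7% in fructose-palatinose). *PDC6*, a minor pyruvate decarboxylase, rose by 4.12 to 5.49, from group means of 0.996 to 1.44 CPM, and *MAE1*, the mitochondrial malic enzyme, by 0.80 to 1.175, in all 4 series. *PYK2*, the minor pyruvate kinase, rose in 3 of the 4 (0.50 to 0.76). *PDC1*, the main decarboxylase, fell in all 4 (-0.52 to -1.88), *CDC19*, the main pyruvate kinase, in 3 (-1.73 to -3.02), *ALT1*, alanine transaminase, in 3 (-0.59 to -0.71), and *PDC5* in fructose in both strains (-0.56 and -0.80). Replicates of *CDC19* differed widely, for example between 284 and 3882 CPM in the wild type in fructose at mid-log.

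Between strains, *PDC1* was lower in *gal80Δ* at +10h and +16h in both media (-1.13 to -1.46), *CDC19* at these times in fructose-palatinose (-2.45 and -2.08) and *MAE1* in 5 of 6 contrasts (-0.93 to -1.38), while *PYK2* was higher in 4 (0.63 to 0.84). *PDC6* was higher in *gal80Δ* in fructose-palatinose at +10h and +16h (0.71 and 0.80) and lower in fructose at +16h (-1.65). It also passed the test of interaction at these times (1.01 and 2.45) and was lower in fructose-palatinose than in fructose in the wild type (-1.18 and -2.60). Between 5.97% and 14.3% of all genes passed in the contrasts between strains. The interaction passed for 0.803% at +10h and 1.53% at +16h, and the contrast between media in the wild type for 11.6% and 6.19%.

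Lactate is the other substrate of Jen1. Of 4 genes listed as lactate dehydrogenases, *CYB2* rose to +10h in all 4 series (1.10 to 1.61) and was higher in *gal80Δ* in 5 of 6 contrasts (0.52 to 0.95). Between 45.7% and 55.2% of all genes passed in the step to +10h, in either direction, and between 5.97% and 14.3% in the contrasts between strains. *DLD3* was higher in *gal80Δ* at +10h (0.75 in fructose-palatinose and 0.71 in fructose), and *DLD1* and *DLD2* passed in none of the 23 contrasts. Beside the carboxylases, *PCK1* (phosphoenolpyruvate carboxykinase) rose by 6.49 to 7.79 and *MDH2* (cytosolic malate dehydrogenase), which also acts on oxaloacetate, by 3.92 to 4.93 in all 4 series. *VHT1*, the importer of biotin, the cofactor of the carboxylases, rose in 3 series (0.83 to 1.16), and *BPL1*, which attaches it, fell in the wild type in fructose (-0.57). At +10h, *PCK1*, *MDH2* and *VHT1* were lower in the wild type in fructose-palatinose than in fructose (-0.98, -0.81 and -0.80), as was *MDH2* at +16h (-0.97). In fructose-palatinose, *MDH2* was higher in *gal80Δ* than in the wild type at +10h and +16h (1.12 each), *VHT1* at +10h (0.86) and *PCK1* at +16h (0.75), and *VHT1* passed the test of interaction at +10h (0.90). *VHT1* fell from +10h to +16h in the wild type in fructose (-0.61), where 11.1% of all genes passed. Between media in the wild type, 11.6% of all genes passed at +10h and 6.19% at +16h. The interaction at +10h passed for 0.803%.

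Among 5 regulators of respiratory carbon use, *CAT8*, *ADR1*, *HAP4* and *SIP4* rose to +10h in all 4 series, by 1.36 to 1.61, 1.00 to 1.75, 1.20 to 1.53 and 4.85 to 7.28. In this step between 45.7% and 55.2% of all genes passed, in either direction, and in the contrasts between strains between 5.97% and 14.3%. Cat8 and Adr1 activate genes for non-fermentable carbon sources, and *JEN1* is known as a target of both. *CAT8* was higher in *gal80Δ* in 5 of 6 contrasts (0.54 to 0.79), *ADR1* at +16h in fructose-palatinose (0.94) and *SIP4* at +10h and +16h in that medium (1.38 and 0.90). *MIG1*, of a repressor acting in glucose, had group means of 0.722 to 3.21 CPM and passed once, as a rise to +10h in the wild type in fructose-palatinose (1.77). From +10h to +16h, 1 of the 5 regulators fell in *gal80Δ* in each medium and 1 in the wild type in fructose. Of all genes, 8.6% passed in this step in *gal80Δ* in fructose-palatinose, 9.27% in *gal80Δ* in fructose and 11.1% in the wild type in fructose. In the wild type, 1 regulator was lower in fructose-palatinose than in fructose at +10h and 1 at +16h, where 11.6% and 6.19% of all genes passed. Counts this small cannot be told apart from these shares.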

How the data were processed

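Messenger RNA of 36 cultures was measured with 3′ end libraries (QuantSeq REV). The authors trimmed reads with cutadapt 1.18, aligned them to R64 with HISAT2 2.1.0 and deposited raw counts per gene from featureCounts (Subread 2.0.0), without normalization. A second file holds harvest ODs, deposited as read by the authors. The CPM column of the count file, 1 column, was not used. Groups came from the sample labels. R64 coding intervals of the reference lay inside the counted interval for 5551 of 5551 matched genes.

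Counts were fitted in R 4.3.3 with edgeR 4.0.16 (TMM, default filter, 5479 of 5697 genes kept, a quasi-likelihood fit of all 36 libraries with 12 group means, common dispersion 0.0314). Contrasts compared strains, media, their interaction, successive times, and time changes between strains or media. Genes passed with a log2 fold change above 0.5 in size and a Benjamini-Hochberg adjusted p below 0.05 over all genes tested, thresholds taken from the study. The study used DESeq2 and required both at all 3 times, whereas here each contrast was judged on its own. The code was tested on simulated data. Whether a culture was sampled at all 3 times is not stated, and libraries were treated as separate. Each group has 3 replicates, and the 12 groups shared the estimate of the spread between replicates. The SEs and p-values therefore do not measure the spread of the compared libraries alone.

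The alternatives were DESeq2 1.42.0, library size alone, RLE size factors, no filter, at least 10 counts in every library, only the groups compared, a replicate block, the culture as a block, leaving out each letter, no fold minimum and a minimum of 1. The text names all 10 members, the genes of the lists that passed in at least 1 contrast, and the 5 genes most like *JEN1*, *MPC3* and *PYC1*. Members and lists were chosen with earlier results of these data known, and the lists, written from general knowledge, may lack genes. Motifs were searched with Python 3.11.15 and biopython 1.88.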

Additional observations from a re-analysis of the deposited data

Results flagged for a closer look

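In 5 cases the change between successive times differed between strains or media by the test of the difference itself. For *MPC2* in fructose-palatinose, the change from mid-log to +10h was 1.03 ± 0.16 higher on the log2 scale in *gal80Δ* than in the wild type (adjusted p = 1.16e-04), and that from +10h to +16h was -0.80 ± 0.16 relative to the wild type (adjusted p = 0.0174), where 0.219% of all genes passed. For *MPC2* in the wild type, the change to +10h was -0.56 ± 0.16 in fructose-palatinose relative to fructose (adjusted p = 0.0485, 3.10% of all genes) and the change to +16h was 0.81 ± 0.16 (adjusted p = 0.00691, 1.41% of all genes). All 4 values use the wild-type libraries in fructose-palatinose at +10h, which held 974, 879 and 911 CPM, and they are not independent of each other. For *PYC1* in fructose-palatinose, the change to +10h was -0.68 ± 0.18 in *gal80Δ* relative to the wild type (adjusted p = 0.0345), beside a level at mid-log that was already higher in *gal80Δ*. Except for the first, each no longer passed whichever of the letters A, B and C was left out. Calls over all genes fell as well without A, B and C. For *MPC2* to +16h they went from 12 to 0, 0 and 5 between strains, and from 77 to 0, 0 and 22 between media. For *MPC2* between media to +10h they went from 170 to 22, 20 and 123. For *PYC1* they went from 143 to 57, 29 and 61. The part of the smaller number of libraries in the losses was not tested. With the culture as a block, *MPC2* between strains to +16h (adjusted p = 0.0524), *MPC2* between media to +10h (0.0866) and *PYC1* (0.0615) no longer passed.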

How the results depend on the processing

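Of the 34 calls of a member in a contrast, none turned its direction under any alternative run, and 14 passed with each letter left out and under every other scaling, filter and model. These were the rise of *JEN1* and of *MPC3* to +10h in all 4 series, the rises of *PYC1* and *LPD1* to +10h in the wild type in fructose-palatinose, 2 falls of *MPC2* and 1 of *PYC2* to +16h, and the strain difference of *MPC2* in the change to +10h in fructose-palatinose. The 8 calls between strains became 1 to 4 with a letter left out, 5 with only the groups compared and 2 with a fold minimum of 1. The 1 call between media became 0 to 1 with a letter left out and 0 with a minimum of 1. The 20 calls over time were 18 to 21 with a letter left out, 35 with no fold minimum and 8 with a minimum of 1. The 5 differences between time changes were 1 with any letter left out, 2 with library size alone, 2 with the culture as a block, 3 with only the groups compared and 1 with a minimum of 1. With the replicate block the counts were 8, 1, 20 and 4, and the block took away only the difference of *MPC2* between media in the wild type to +10h (-0.56, adjusted p = 0.0597). Letters did not pair the libraries in most comparisons: in 3 of 20 did every same-letter correlation exceed 0.1 (median -0.00826), and 22 of 60 pairs correlated best with their own letter. The 3 include the strains in fructose-palatinose at +10h and the wild type in fructose-palatinose from mid-log to +10h. In the latter the correlations were 0.299, 0.109 and 0.353 for A, B and C, each best with its own letter, so pairing there is not settled. With a letter left out there were fewer libraries, and calls over all genes fell in each contrast of the 5 differences and of the 8 calls between strains. The causes of these changes were not tested.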
